A study of Drosophila melanogaster with 7 samples.

Results

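The maternal mRNA regulators described here are genes whose products repress, carry, anchor or polyadenylate messenger RNAs that the mother loads into the *Drosophila* egg. A list of 10 genes (*smg*, *BicD*, *BicC*, *nos*, *osk*, *pum*, *exu*, *stau*, *egl* and *orb*) was taken, and an array feature was a member if the platform's annotation gave it exactly 1 gene symbol and that symbol was on the list. This left 8 features of 7 genes, out of 10376 features in all and 8598 with exactly 1 gene name. *smg* had 2 clones and *BicD*, *BicC*, *osk*, *exu*, *stau* and *egl* had 1 each, and *nos*, *pum* and *orb* were not analysed here. A ninth clone, which the annotation assigned to both *Patj* and *smg*, was left out by the rule and is shown only beside the *smg* clones.

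The measurements came from 7 spotted cDNA arrays. Each was hybridised with RNA of embryos homozygous for lolaORC4, an allele that inactivates the single isoform K of the transcription factor Lola, and with RNA of control embryos collected at the same time. Mutants were of the genotype lolaORC4 sca-GAL4/lolaORC4 UAS-tau-eGFP and controls of the genotype sca-GAL4/UAS-tau-eGFP, both in a w1118 background. Both thus carried the GAL4 driver and the green fluorescent reporter, by whose signal in the nervous system the embryos were picked. Every sample was a pool of about 300 whole embryos aged 10 to 12 hours after egg laying, so that a change in the number of cells of a type and a change in RNA per cell cannot be told apart. Both chromosomes of the mutants carried the same *lola* allele, so the allele and any modifier locus linked to it cannot be told apart. Over all features the arrays correlated with an r of 0.06 to 0.72.

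These genes are best known from oogenesis and the first hours of embryogenesis. Smaug, the product of *smg*, is an RNA-binding protein that silences *nos* and many other maternal transcripts and recruits a deadenylase to them, and it is needed for the clearance of maternal mRNA when zygotic transcription begins. Bicaudal D links cargo to the minus-end motor dynein, and Egalitarian joins Bicaudal D to localised mRNAs. Staufen and Exuperantia act in the localisation of *osk* and *bcd* RNA, and Oskar protein assembles the germ plasm at the posterior pole. Several of these genes are also transcribed later in development, and in the fly nervous system Staufen binds the RNA of the neuroblast factor *pros*. Embryos of 10 to 12 hours are long past the clearance of maternal mRNA, and the arrays do not separate maternal from zygotic transcripts.

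All values are log2 ratios between the mutant and control samples of an array, with 1 unit equal to a doubling. The sources do not settle whether the deposited ratios are mutant over control or the reverse. All arrays run the same way, and every value was multiplied by -1, so that the clones of *spir*, the actin nucleation factor gene central to the study, are positive. With this *spir*-aligned sign, clone GH13327 of *spir* had a mean log2 ratio of 1.58 and clone SD10157 of 1.15, both positive on 7 of 7 arrays. These 2 clones set the sign and are not a result here. A positive value therefore means the same side as *spir*. The study gives its ratios for a *lola* null allele as mutant over wild type and *spir* as raised there, so this sign is its direction of *spir* for the null allele, while the direction for lolaORC4 is not given. It does not mean higher in the mutant: if the deposited ratios are mutant over control, a positive value here is lower in the mutant, and otherwise it is higher. Each feature was tested against a mean of 0 with *limma*, with Benjamini-Hochberg adjustment over all 10376 features, and is called changed at an adjusted p under 0.05. The labels place the mutant in Cy3 on replicates 1, 4 and 6 and in Cy5 on replicates 2, 3, 5 and 7. Of the 4 clones of *lola* itself, GH08307 (0.17) and GM09276 (0.46) were positive, LD17006 (-0.44) was negative and LD28033 (0.14) did not pass. Which isoforms these clones detect is not given, so they do not check the labels.

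Both clones of *smg* and the clone of *BicD* were changed and positive, and no other regulator passed. The log2 ratio of *smg* was 0.42 on clone LD07551 and 0.52 on clone LD30037, which correspond to a 1.34-fold and a 1.43-fold difference, and that of *BicD* was 0.25, a 1.19-fold difference. In all, 3 of the 8 features changed (37.5%), all of them positive, against a background of 7.64% of all 10376 features changed in either direction, 3.18% positive and 4.46% negative. The 3 features represent 2 genes, since both *smg* clones carry the same gene symbol. The genes were chosen with earlier results of these data known, so the 37.5% is a description and not a test of the list. The features of the other 5 genes had means between -0.09 and 0.10. Over all features the median absolute mean was 0.06, and among the 793 changed features it was 0.29, so *smg* lay above and *BicD* below the typical size of a called change.

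**Figure D1:**
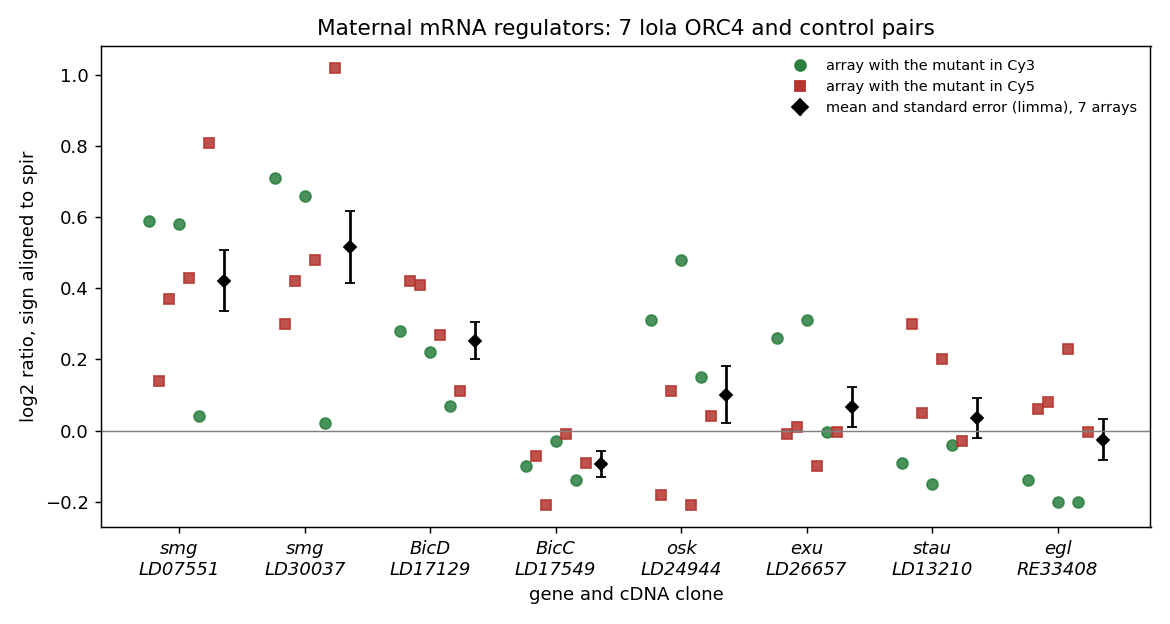
Log2 ratio, with the sign aligned to *spir*, of the 8 features of the maternal mRNA regulators on each of 7 arrays. Green circles are arrays with the mutant in Cy3, red squares arrays with the mutant in Cy5, and black diamonds with bars are the mean and its standard error from *limma*. The *smg* and *BicD* values are above 0 on every array, those of *BicC* below 0 on every array, and those of *osk*, *exu*, *stau* and *egl* lie on both sides of 0.

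The *smg* clone LD07551 had log2 ratios of 0.59, 0.14, 0.37, 0.58, 0.43, 0.04 and 0.81 on replicates 1 to 7. Its mean was 0.42 ± 0.27 (SD, n = 7; standard error 0.09; adjusted p = 0.017 from *limma*), with a 95% interval from 0.23 to 0.61. It was positive on all 7 arrays, as were 4.81% of all features (11.6% had one sign on all arrays), but replicate 6 lay almost at 0 and replicate 7 was the highest. Clone LD30037 gave 0.71, 0.30, 0.42, 0.66, 0.48, 0.02 and 1.02 on the same arrays, with a mean of 0.52 ± 0.32 (SD, n = 7; standard error 0.10; adjusted p = 0.015 from *limma*) and a 95% interval from 0.29 to 0.74. Only 2.63% of all features had a larger absolute mean than the first clone and 1.80% a larger one than the second.

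The array-to-array spread of *smg* was wide on both clones. The SD of 0.27 and 0.32 compares with a median of 0.14 over all features, and 12.7% and 7.45% of features had a larger one. Over the 7 arrays the clones followed each other with a Pearson r of 0.979, which is a description of spots that share the RNA samples and the gene. LD30037 exceeded LD07551 on 6 of 7 arrays, by 0.09 ± 0.08 on average (SD, n = 7). Replicates 7, 1 and 4 were the highest arrays for both clones and replicates 2 and 6 the lowest. The dye orientations were spread through this order: LD07551 had a mean of 0.40 where the mutant was in Cy3 (3 arrays) and of 0.44 where it was in Cy5 (4 arrays), and LD30037 had 0.46 and 0.56.

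The clone LD22238, which the annotation lists under *Patj* and *smg* together, did not follow the *smg* clones. It had -0.06, -0.01, -0.05, -0.04, 0.04, 0.19 and -0.14 on replicates 1 to 7, with a mean of -0.01 (standard error 0.04, adjusted p = 0.94 from *limma*). On replicate 6, where both *smg* clones were near 0, this clone had its highest value, and on replicate 7, where they were highest, it had its lowest. *Patj* encodes a PDZ-domain protein of apical cell junctions, and the gene table lists this clone's name among the synonyms of *Patj*, not of *smg*. Whether it measured *smg* was not tested.

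**Figure D2:**
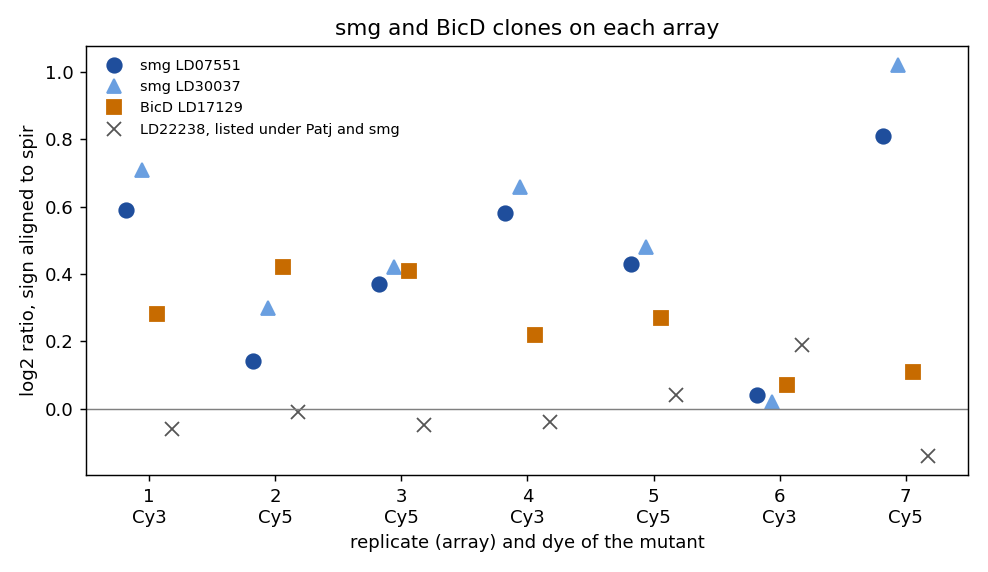
Log2 ratio, with the sign aligned to *spir*, of the *smg* clones LD07551 (circles) and LD30037 (triangles), the *BicD* clone LD17129 (squares) and the clone LD22238 listed under *Patj* and *smg* (crosses) on each array, with the dye of the mutant below the replicate number. The *smg* clones move together from 0.02 on replicate 6 to 1.02 on replicate 7, *BicD* has its highest value of 0.42 on replicate 2, and LD22238 stays between -0.14 and 0.19.

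*BicD* was smaller in size and steadier between arrays than *smg*. Its clone LD17129 had 0.28, 0.42, 0.41, 0.22, 0.27, 0.07 and 0.11 on replicates 1 to 7, with a mean of 0.25 ± 0.14 (SD, n = 7; standard error 0.05; adjusted p = 0.016 from *limma*) and a 95% interval from 0.14 to 0.37. All arrays were positive, the highest were replicates 2 and 3, and the lowest were replicates 6 and 7. The mean was 0.19 with the mutant in Cy3 and 0.30 with the mutant in Cy5, and the arrays of the orientations overlapped. The order of the arrays was not that of *smg*. Replicate 7, the highest for *smg*, was among the lowest for *BicD*, and over the 7 arrays the r of *BicD* was -0.19 with LD07551 and -0.12 with LD30037. Replicate 6 was the lowest array for all 3 clones.

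These calls were close to the threshold. At an adjusted p under 0.01 none of the 3 passed. LD07551 did not pass without replicate 4 (0.40, adjusted p = 0.055 from *limma*) or replicate 5 (0.42, adjusted p = 0.053), nor *BicD* without replicate 3 (0.23, adjusted p = 0.053) or replicate 5 (0.25, adjusted p = 0.053), while LD30037 passed without any single array (0.43 to 0.60, adjusted p up to 0.047). The number of changed member features was then 2 without replicate 3 or 4 and 1 without replicate 5.

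**Figure D3:**
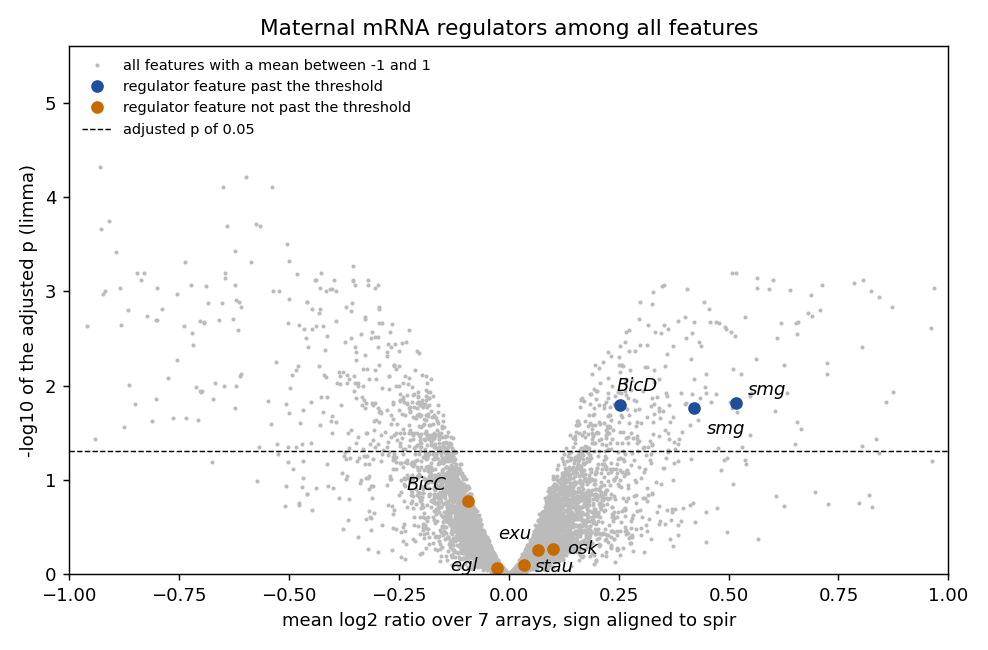
Mean log2 ratio over 7 arrays (sign aligned to *spir*) against -log10 of the adjusted p from *limma*, for all features with a mean between -1 and 1 (grey; 52 features lie outside) and for the regulators (blue past the threshold, orange not). Both *smg* clones and *BicD* lie above the dashed line of an adjusted p of 0.05, and *BicC*, *osk*, *exu*, *stau* and *egl* below it.

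Among the repressors, *BicC* ran opposite to *smg* with a small value that did not pass. *BicC* encodes a KH-domain RNA-binding protein that represses translation and, like Smaug, recruits the CCR4-NOT deadenylase. Its clone LD17549 had -0.10, -0.07, -0.21, -0.03, -0.01, -0.14 and -0.09 on replicates 1 to 7. The mean was -0.09 ± 0.07 (SD, n = 7; standard error 0.04; adjusted p = 0.17 from *limma*), with a 95% interval from -0.17 to -0.01 before any adjustment. It was negative on 7 of 7 arrays, as were 6.78% of all features. The 91.4% of features with a larger SD make it the steadiest of the regulators.

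The partner of *BicD* in mRNA transport, *egl*, had a mean near 0. Clone RE33408 had -0.14, 0.06, 0.08, -0.20, 0.23, -0.20 and -0.003 on replicates 1 to 7, with a mean of -0.03 (standard error 0.06, adjusted p = 0.85 from *limma*; 95% interval -0.16 to 0.10). Its values separated by dye. All 3 arrays with the mutant in Cy3 were negative, with a mean of -0.18 ± 0.04 (SD, n = 3), and the 4 others had a mean of 0.09 ± 0.10 (SD, n = 4), with no overlap. A dye coefficient for *egl* was different from 0 (adjusted p = 0.041 from *limma*), as for 10.6% of all features, and with that coefficient in the model the mean was -0.05 (adjusted p = 0.42).

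The localisation factors *exu* and *stau* and the germ plasm gene *osk* did not pass either, and none of their dye coefficients passed. The *osk* clone LD24944 had 0.31, -0.18, 0.11, 0.48, -0.21, 0.15 and 0.04 on replicates 1 to 7, with a mean of 0.10 (standard error 0.08, adjusted p = 0.53 from *limma*; 95% interval -0.08 to 0.28). With the mutant in Cy3 its mean was 0.31 ± 0.16 (SD, n = 3) and with the mutant in Cy5 it was -0.06 ± 0.16 (SD, n = 4), without overlap, and the dye coefficient had an adjusted p of 0.068 (*limma*). The *osk* values were positive on 5 of the 7 arrays, and those with the mutant in Cy5 lay on both sides of 0. With a dye coefficient in the model the *osk* mean was 0.13 (adjusted p = 0.17 from *limma*).

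*stau*, which encodes a double-stranded RNA-binding protein, had -0.09, 0.30, 0.05, -0.15, 0.20, -0.04 and -0.03 on clone LD13210, with a mean of 0.03 (standard error 0.06, adjusted p = 0.79 from *limma*; 95% interval -0.09 to 0.16). Here the arrays with the mutant in Cy5 were the higher ones (0.13 against -0.09), and the closest values of the orientations were -0.03 and -0.04. The *exu* clone LD26657 had 0.26, -0.01, 0.01, 0.31, -0.10, -0.003 and -0.004 on replicates 1 to 7, with a mean of 0.07 (standard error 0.06, adjusted p = 0.55 from *limma*; 95% interval -0.06 to 0.19). Replicates 1 and 4, both with the mutant in Cy3, stood well above the others, which lay between -0.10 and 0.01. The *exu* mean was 0.19 ± 0.17 (SD, n = 3) with the mutant in Cy3 and -0.03 ± 0.05 (SD, n = 4) with the mutant in Cy5. The orientations overlapped only narrowly, with a lowest Cy3 value of -0.003 and a highest Cy5 value of 0.01. The dye coefficients of *stau* and *exu* each had an adjusted p of 0.15 (*limma*).

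Across arrays *osk* and *exu* ran together (r = 0.892) and opposite to *stau* (r of -0.917 and -0.707) and to *egl* (r of -0.835 and -0.725), as a description over 7 arrays that share their dyes. The *osk*, *stau* and *egl* features, 3 of 8, had orientations that did not overlap, against 26.4% of all features. For *smg*, *BicD* and *BicC* the orientations overlapped, and their means with a dye coefficient were 0.42, 0.51, 0.25 and -0.09 for LD07551, LD30037, *BicD* and *BicC*, close to those without it. With the dye coefficient the calls of all 8 features stayed on their side of the threshold.

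Beyond the 10 genes, 7 related gene lists held 73 further features of 59 genes. Of these, 4 were changed and positive, 2 changed and negative, and 67 did not pass, so that 8.22% changed against the background of 7.64%. The median of the 73 means was 0.05, beside 0.01 over all features. Of the 4 positive features 2 are the *spir* clones that set the sign.

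The 2 negative features were both clones of *me31B*, which encodes a DEAD-box RNA helicase of silenced ribonucleoprotein particles that binds in the same repressor complex as Smaug. Clone LD01252 had -0.14, -0.15, -0.30, -0.07, -0.20, -0.32 and -0.23 on replicates 1 to 7, a mean of -0.20 ± 0.09 (SD, n = 7; adjusted p = 0.016 from *limma*). Clone LD21247 had -0.17, -0.15, -0.22, -0.12, -0.17, -0.27 and -0.19, a mean of -0.19 ± 0.05 (SD, n = 7; adjusted p = 0.0095 from *limma*). Every *me31B* value was thus on the side opposite to *smg*, and replicate 6, where *smg* was lowest, gave the largest negative value for both clones. LD21247 passed without any single array (adjusted p up to 0.037), and LD01252 did not pass without replicate 3 (-0.19, adjusted p = 0.056), replicate 5 (-0.20, adjusted p = 0.052) or replicate 7 (-0.20, adjusted p = 0.052).

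The list of Smaug partners and of the deadenylation and decay machinery held 23 features beside the *smg* clones, of which the other 21 did not pass, with a median of 0.04 over the 23. The Ccr4 deadenylase gene *twin* had a mean of 0.16 (adjusted p = 0.050 from *limma*) and *Not10* one of -0.13 (adjusted p = 0.056), both just outside the threshold. With a dye coefficient in the model both passed, with an adjusted p of 0.036 and 0.027 (*limma*). The deadenylase gene *Pop2* was at 0.08 on both of its clones, the scaffold gene *Not1* at 0.31 (standard error 0.16) and 0.10 (standard error 0.06), of which the larger was at 1.39 on replicate 2 and had a mean of 0.13 without it, the smaller then being at 0.06, and *cup*, which encodes a translational repressor bound to eIF4E, at -0.01. The *png* kinase gene, which is needed for Smaug to be made in the egg, was at 0.04.

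None of the 8 further features for dynein, dynactin and kinesin subunits passed in *limma* (2 had an unadjusted p under 0.05), and their median was -0.03. The dynein heavy chain gene *Dhc64C* had a mean of -0.15 (adjusted p = 0.098 from *limma*), the dynactin gene *DCTN1-p150* at -0.03, the dynein light chain genes *ctp* and *robl* at -0.04 and 0.003, and the kinesin light chain gene *Klc* at -0.12. On the positive side were the dynactin gene *DCTN4-p62* (0.13, adjusted p = 0.14) and the dynein light intermediate chain gene *Dlic* (0.13), which was at 1.05 on replicate 2 and had a mean of -0.02 without it. For cytoplasmic polyadenylation and deadenylation none of 14 features passed in *limma* (2 had an unadjusted p under 0.05; median 0.08), among them 3 clones of *orb2*, the relative of *orb*, at 0.04 to 0.09, and the poly(A) polymerase gene *wisp* at 0.12.

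In the *osk* localisation list none of the 17 features beside the 2 of *spir*, *osk* and *stau* passed in *limma* (3 had an unadjusted p under 0.05), and the exon junction gene *tsu* had a mean of -0.15 (adjusted p = 0.099). The other 2 were clones of *heph*, the polypyrimidine tract-binding protein gene, at 0.18 and 0.22 (adjusted p of 0.18 and 0.16), and at 0.12 and 0.14 without replicate 2. In the lists of the posterior and anterior groups, *aub* and *bcd* were changed and positive. *aub*, which encodes a piRNA-binding protein of the germ plasm, was between 0.09 and 0.41 on the 7 arrays, with a mean of 0.24 ± 0.12 (SD, n = 7; adjusted p = 0.013 from *limma*), and passed without any single array (adjusted p up to 0.042). *bcd*, the anterior determinant whose RNA Exuperantia and Staufen localise, was between 0.06 and 0.25, with a mean of 0.15 ± 0.06 (SD, n = 7; adjusted p = 0.026 from *limma*). Leaving out replicate 1 kept the *bcd* call (0.17, adjusted p = 0.031), and leaving out any of replicates 2 to 7 lost it (0.14 to 0.16, highest adjusted p 0.077). The other localised target mRNAs *grk* (0.15, adjusted p = 0.077), *CycB* (0.13), *hb* (0.03) and *gcl* (0.01) did not pass.

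**Figure D4:**
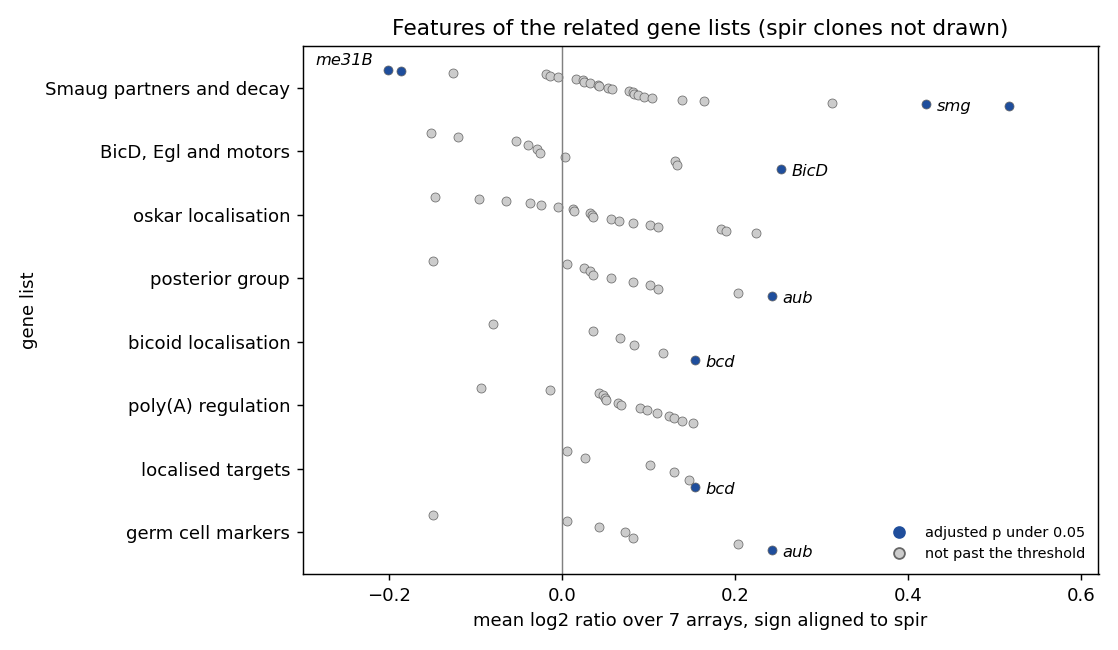
Mean log2 ratio over 7 arrays (sign aligned to *spir*) of each feature in 7 related gene lists and a list of germ cell markers, 1 row of points per list, spread vertically for visibility. Blue points passed an adjusted p under 0.05 and are named once per gene, grey points did not, and the *spir* clones are not drawn. *me31B* is the only gene with changed features on the negative side.

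Markers of the cell types a whole embryo holds were read beside these values. Of 7 features for 6 germ cell marker genes *aub* passed and 6 did not, and the mean of the list lay between 0.02 and 0.10 on the 7 arrays. The defining germ cell gene *vas* had a mean of -0.15 (adjusted p = 0.13 from *limma*) and *tud* one of 0.20 (adjusted p = 0.068), and *nos* and *pgc* were not analysed here. Of 6 glial features none passed in *limma* (1 had an unadjusted p under 0.05), with array means between -0.10 and 0.15. Only 2 of 8 neuronal markers were measured, with array means between -0.33 and 0.05: *nSyb*, a synaptic vesicle gene, was negative (-0.39, adjusted p = 0.0071 from *limma*) and *futsch* did not pass (0.07).

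In muscle, 1 of 12 features passed, with array means between -0.17 and 0.53. It was the clone RH25277 of the titin-like gene *sls* at 2.02, without which the array means lay between -0.37 and 0.41, and the other 3 *sls* clones had 0.11 to 0.27 and did not pass. Of 8 hemocyte features the 2 of the matrix peroxidase gene *Pxn* were positive (0.39 and 0.21) and 6 did not pass, with array means between 0.03 and 0.18. Of 5 features of epidermis and trachea, that of the chitin deacetylase gene *serp* was negative (-1.19) and 4 did not pass, with array means between -0.67 and 0.14. The changed share was 14.3% for germ cells, 50% for neurons, 0% for glia and 8.33% for muscle. It was 25% for hemocytes, from *Pxn* alone, and 20% for epidermis and trachea, against 7.64% over all features. These lists are small, with 2 to 12 features each. The part of these cell types in the values of *smg* and *BicD* was not tested.

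Since maternal transcripts decline with age, genes of early and late embryos were set beside *smg* as well. None of 7 features of blastoderm and gastrula genes passed in *limma* (2 had an unadjusted p under 0.05), with array means between -0.08 and 0.14. Of 7 features of late genes, *nSyb* and 1 of the clones of *Obp99a* were changed and negative and 5 did not pass, so that 28.6% changed against 7.64% of all features. The median of the 7 was -0.21, and 5 of them had an unadjusted p under 0.05 in *limma*. Of these 5, *Cpr49Ac* was positive (0.14, adjusted p = 0.11 from *limma*). The others were negative, and both clones of *Obp99a* were among them. The *nSyb* feature and those of the cuticle protein genes *Cpr49Ac* and *TwdlM* are also among the neuronal and epidermal markers above. This list is therefore not independent of those markers. The late genes were lowest on replicates 3, 5 and 7 (-0.62, -0.33 and -0.29). Without the 2 clones of *TwdlM*, these arrays had -0.29, -0.22 and -0.24 and were still the lowest. The *smg* clones were highest on replicates 7, 1 and 4. The part of embryo age in the *smg* values was not tested.

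The chromosomal neighbours of *smg* and *BicD* were also measured. The 5 nearest genes with a feature on each side of *smg* had 10 features with means between -0.11 and 0.07, and those around *BicD* had 11 features with means between -0.08 and 0.18. None of them passed in *limma*, and 2 around each gene had an unadjusted p under 0.05. The nearest measured genes had means of -0.03 (*CG5280*) and -0.09 (*CG5087*) for *smg* and of 0.01 (*SPH93*) and -0.08 (*Sgt*) for *BicD*.

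Array patterns most like those of *smg* and *BicD* were found among all features with 1 gene name, as a description only, since an r over 7 arrays is imprecise. For LD07551, 97 of 8596 features had an r over 0.9, with *Svip* (0.993), *CG5500* (0.981) and *Rab19* (0.973) the closest, and for LD30037 there were 63, with *CG5510* (0.972), *Svip* (0.970) and *CG15012* (0.968). Of these only *Svip* was itself changed, with a mean of 0.26 (adjusted p = 0.049 from *limma*). For *BicD*, 32 of 8597 features had an r over 0.9, the closest being *Liprin-gamma* on clone RE35867 (0.980), *CG12863* (0.976) and *exp* (0.966). All 3 were themselves changed, on the side opposite to *BicD*, with means of -0.25, -0.15 and -0.20 (adjusted p of 0.038, 0.044 and 0.041 from *limma*). Another *Liprin-gamma* clone, GH14517, was not among the 3 closest. Its highest value was on replicate 2 and its lowest on replicate 4.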

How the data were processed

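RNA of lolaORC4 and control embryos was co-hybridised on 7 two-colour cDNA arrays. Spots were extracted by the authors with GenePix and normalised in *limma* (version not given here) without background correction, by print-tip loess within arrays and scaling between arrays, and the deposited values are log2 ratios, 1 for each array of each feature. Their direction is not stated, and as deposited the array medians lay between -0.01 and 0.02. Spot intensities were not used here, so levels and a filter on dim spots are not given, and the number of arrays limits the precision. All 10376 features were kept, of which 517 had several gene names and 1261 none. Older symbols were updated by Entrez identifier from an annotation of the fly Release 6 assembly.

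The ratios were multiplied by -1 to make *spir* positive. For every feature the mean of 7 arrays was tested against 0 (lmFit and eBayes of *limma* 3.58.1, R 4.3.3), and p-values were adjusted over the whole array by Benjamini-Hochberg. The scripts were tested on simulated data with normal noise and known changes. They recovered 27 of 50 changes of 0.25 log2, 45 of 50 of 0.5, 49 of 50 of 1 and 50 of 50 of 2, with 12 false calls. A feature that did not pass is therefore not shown to be unchanged. The study's methods call its 7 sample pairs independent, and the arrays were treated as replicates. The labels' dye orientation was used, although the study's methods count the orientations the other way round. Alternatives were a dye coefficient, median centring, quantile normalisation, weighting of arrays, a robust variance prior, omission of single arrays, averaging of a gene's features, a test of features with 1 gene name alone, and an adjusted p under 0.01. Lists without single clones were added after the data were seen, as were the values of *Not1*, *Dlic* and *heph* without replicate 2. The genes and lists were chosen with earlier results of these data known. By rule, all member features, up to 4 called features of each related list, 1 per gene, and the 3 features closest in array pattern to *smg* and *BicD* were named, and the other genes were named after their values were seen.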

Additional observations from a re-analysis of the deposited data

Results flagged for a closer look

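Of 73 features of the genes named in the text, 5 had 1 array that stood apart from the other 6 by Dixon's criterion. Chance alone meets this criterion in about 1 of 20 groups. Some of these genes were named after their values were seen, so the count is a description and not a test against that rate. Features of genes not named were not screened. In all 5 features the value that stood apart was the highest and lay on replicate 2. These values were 1.05 for *Dlic*, 0.92 for the *sls* clone RH63601, 0.75 for the *heph* clone SD22984, 0.34 for *ctp* and 0.19 for *gcl*. Replicate 2 also had the lowest array weight in *limma* (0.62) and, with replicate 1, the lowest correlation between arrays (0.06). Those 2 arrays have opposite dye orientations. With replicates 3, 5 and 7, which share its orientation, replicate 2 had an r of 0.48, 0.62 and 0.30. None of these 5 features passed the test, none belongs to the 10 regulator genes, and without replicate 2 the count of changed regulator features was still 3.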

How the results depend on the processing

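The count of 3 changed member features was the same with a dye coefficient, median centring, quantile normalisation, array weights, robust empirical Bayes and only features with 1 gene name, was 2 with the features of a gene averaged (*smg* as 1 value at 0.47, and *BicD*), ranged from 1 to 3 over the fits without 1 array, and was 0 at an adjusted p under 0.01. The 793 changed features over the array became 1234 with a dye coefficient, 313 at an adjusted p under 0.01, and 441 to 810 without 1 array; the cause was not tested. None of the 5 member features that did not pass did so under any of the 14 alternative fits. In the related lists some features passed only with a dye coefficient. They include *twin* (adjusted p = 0.036 from *limma*), *Not10* (0.027), *tsu* (0.037), *grk* (0.032) and *tud* (0.017). The *me31B*, *aub* and *bcd* clones passed with it as well. Fits without 1 array have fewer samples. Each ratio already pairs a mutant sample with its control. No paired analysis was possible because, beyond this pairing within arrays, the arrays form 1 group with no numbers shared between groups. A background correction and a filter on dim spots were not run, since only ratios were used.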
